A study of Mus musculus with 8 samples.

Results

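RNA-seq of whole bone marrow (BM) was searched for the adult alpha and beta globins, and all 4 genes named for this purpose, Hba-a1, Hba-a2, Hbb-bs and Hbb-bt, are among the 13305 genes of the deposited count table. They were chosen by name, with earlier results of these data known and with no threshold on their values. The 8 libraries come from 8 C57BL/6N mice with an Mx1-Cre transgene, loss of 1 Dnmt3a allele (Dnmt3a+/-) and the internal tandem duplication on both Flt3 alleles (Flt3ITD/ITD), so that no library without leukemia drivers is among them. Of these mice, 3 are Gab2+/+ (AML WT), 2 are Gab2+/- (AML HET) and 3 are Gab2-/- (AML KO), with no drug treatment named for the mice and with their age at RNA isolation not given in the sources used here. The Mx1 promoter, which responds to interferon, drives Cre, the study found Dnmt3a recombined without an inducing injection, and its Gab2 KO allele carries a neomycin cassette in place of several exons. Red cell lysis is stated for the flow cytometry samples of the study, and whether BM for RNA was lysed is not stated.

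Hemoglobin is a tetramer of alpha and beta globin chains that each hold a heme group, and it is the main protein of red blood cells. In mouse, the alpha globin genes lie together on chromosome 11 and the beta globin genes on chromosome 7, each cluster with embryonic and adult members and with distal enhancers that act in erythroid cells. Erythroblasts of the BM transcribe both adult clusters in a balanced way, because an excess of free chains harms the cell, and the erythroid factors Gata1, Tal1 and Klf1 bind at these loci.

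Positions are those of GENCODE M21 (GRCm38). Hba-a1 (ENSMUSG00000069919) lies at chr11:32283511-32284465 and Hba-a2 (ENSMUSG00000069917) at chr11:32296489-32297298, both on the plus strand. Hbb-bs (ENSMUSG00000052305) lies at chr7:103826534-103828096 and Hbb-bt (ENSMUSG00000073940) at chr7:103812524-103813996, both on the minus strand. The beta cluster starts 6.5 Mb from the end of Gab2 on the same chromosome. Within each pair the copies are nearly the same: the coding sequences of Hba-a1 and Hba-a2 (429 bases) differ at 1 base, and so do those of Hbb-bs and Hbb-bt (444 bases). Of all 100-base windows of the coding transcript, 56.5% in Hba-a1, 74.5% in Hba-a2, 62.6% in Hbb-bs and 54.8% in Hbb-bt also occur in the other copy. How the authors counted reads that fit both copies is not given in the sources used here, so the split of counts between copies is uncertain. If such reads were left out, the sums within a cluster, and any ratio of these sums, would depend on this too.

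The GENCODE spans given above begin upstream of the RefSeq starts of these genes, so each stretch given below lies partly within such a span. The sequences just before the RefSeq start show how far the copies differ there. They are given 5′ to 3′ as the 250 bases before the RefSeq start (GRCm38.p6), at chr11:32283422-32283671 for Hba-a1, chr7:103827929-103828178 for Hbb-bs and chr7:103813924-103814173 for Hbb-bt, with capitals for matches to any of 4 motifs searched on both strands: the CACCC box, the CCAAT box, a TATA-like ATATAA run and the GATAA core to which Gata factors bind.
Hba-a1: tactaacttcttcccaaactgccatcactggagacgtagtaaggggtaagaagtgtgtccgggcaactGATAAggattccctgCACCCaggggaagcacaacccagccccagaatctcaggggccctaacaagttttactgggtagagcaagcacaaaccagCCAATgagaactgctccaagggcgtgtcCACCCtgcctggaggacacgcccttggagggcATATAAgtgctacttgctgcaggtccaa
Hbb-bs: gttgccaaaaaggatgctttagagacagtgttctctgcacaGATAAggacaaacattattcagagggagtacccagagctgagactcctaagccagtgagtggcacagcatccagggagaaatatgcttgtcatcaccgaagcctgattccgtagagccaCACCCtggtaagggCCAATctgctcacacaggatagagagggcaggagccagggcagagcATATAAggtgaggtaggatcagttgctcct
Hbb-bt: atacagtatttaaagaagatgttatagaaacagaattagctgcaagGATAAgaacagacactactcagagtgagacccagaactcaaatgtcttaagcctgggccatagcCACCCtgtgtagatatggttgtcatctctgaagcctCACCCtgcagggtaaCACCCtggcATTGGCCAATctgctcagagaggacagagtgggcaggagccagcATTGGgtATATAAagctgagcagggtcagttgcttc
The promoter of Hba-a2 holds the same bases as that of Hba-a1, shifted by the annotated start, with 247 equal bases and 0 different ones. The promoters of Hbb-bs and Hbb-bt, by contrast, are 68.4% identical. All 4 promoters hold each of the 4 motifs, with ATATAA ending 23 to 26 bases and CCAAT 71 to 87 bases before the start, and Hbb-bt holds 3 CACCC motifs where Hbb-bs holds 1. Hbb-bt also holds CCAAT on the opposite strand in 2 places, 1 of them directly next to the same motif on its own strand, and no motifs overlap. Among all 32851 RefSeq promoters of this length, 52% hold the CACCC box, 33.8% hold the CCAAT box, 9.1% hold the ATATAA run and 22.6% hold the GATAA core, and 1.36% hold the first 3 of these together. A match is a description of the letters and not evidence of binding.

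Between 28009258 and 39266815 counts per mouse were assigned to genes. The 4 globins together took 0.02176% to 0.03152% of the counts in AML WT, 0.05091% and 0.1864% in AML HET and 0.1282% to 0.4498% in AML KO BM. Of the genes that mark erythroid cells, Alas2 was at 4.13 to 5.53 CPM (counts relative to library size, scaled with TMM factors) in AML WT BM and Epb42, a protein of the red cell skeleton, at 0.369 to 1.23 CPM, so both were low but detected in every mouse of that group. Gab2, the targeted gene, was at 61.6 to 93.9 CPM in AML WT, 55.8 and 50.8 in AML HET and 35.0 to 47.2 in AML KO BM, and its level in AML KO does not show which exons carry the remaining reads.

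Adult globin transcripts were far more abundant in AML KO than in AML WT BM. Hba-a1, Hba-a2 and Hbb-bs rose 11.4-fold, 13.9-fold and 10.5-fold, and Hbb-bt was 4.85-fold higher without passing the test. For every one of the 4 genes, the lowest AML KO mouse was above the highest AML WT mouse. AML HET BM was in between on average, with its 2 mice far apart.

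Hba-a1, which encodes the alpha chain, was at 49.4, 57.7 and 80.2 CPM in AML WT mice 1 to 3, at 118.5 and 502.5 CPM in AML HET mice 1 and 2, and at 1281.4, 336.2 and 511.3 CPM in AML KO mice 1 to 3. All AML KO mice lay above all AML WT mice, and AML HET mouse 2 lay within the AML KO range. The means were 62.4 ± 15.9 (SD, n = 3), 310.5 ± 272 (SD, n = 2) and 709.7 ± 503 CPM (SD, n = 3), and the AML KO level exceeded the AML WT level by 3.51 on the log2 scale (SE 0.62). The adjusted p was 0.0227 (edgeR quasi-likelihood test, Benjamini-Hochberg over all genes). All p-values here set a difference between groups against the spread between mice of the same group.

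Hba-a2, the second adult alpha gene, was at 23.1, 34.9 and 52.5 CPM in AML WT, 80.9 and 345.4 CPM in AML HET and 933.4, 201.2 and 403.4 CPM in AML KO BM. The order of the 8 mice was the same as for Hba-a1, with AML WT mouse 1 lowest and AML KO mouse 1 highest. Means were 36.8 ± 14.8 (SD, n = 3) in AML WT and 512.7 ± 378 CPM (SD, n = 3) in AML KO, 3.80 apart on the log2 scale (SE 0.69, edgeR adjusted p = 0.0243).

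Hbb-bs, the adult beta gene with the most counts in every mouse, was at 103.2, 112.9 and 141.1 CPM in AML WT, 242.5 and 800.4 CPM in AML HET and 2289.2, 627.1 and 829.5 CPM in AML KO BM. Here too AML KO mouse 1 stood highest, and AML HET mouse 2 lay between AML KO mice 2 and 3. The mean rose from 119.1 ± 19.7 (SD, n = 3) to 1248.6 ± 907 CPM (SD, n = 3), by 3.39 on the log2 scale (SE 0.56, edgeR adjusted p = 0.0163).

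Hbb-bt, the other adult beta gene, was at 34.3, 51.3 and 41.5 CPM in AML WT, 58.0 and 217.8 CPM in AML HET and 341.6, 144.9 and 130.7 CPM in AML KO BM. Its order of mice differed from that of the other 3 genes, since AML WT mouse 2 was above AML WT mouse 3, and AML KO mouse 3 was the lowest of its group. The means were 42.4 ± 8.53 (SD, n = 3) in AML WT and 205.7 ± 118 CPM (SD, n = 3) in AML KO, 2.28 apart on the log2 scale (SE 0.50), and the edgeR adjusted p of 0.0538 missed the threshold. With DESeq2, or in a fit without the AML HET mice, it passed (adjusted p = 0.00803 and 0.0239).

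**Figure D1:**
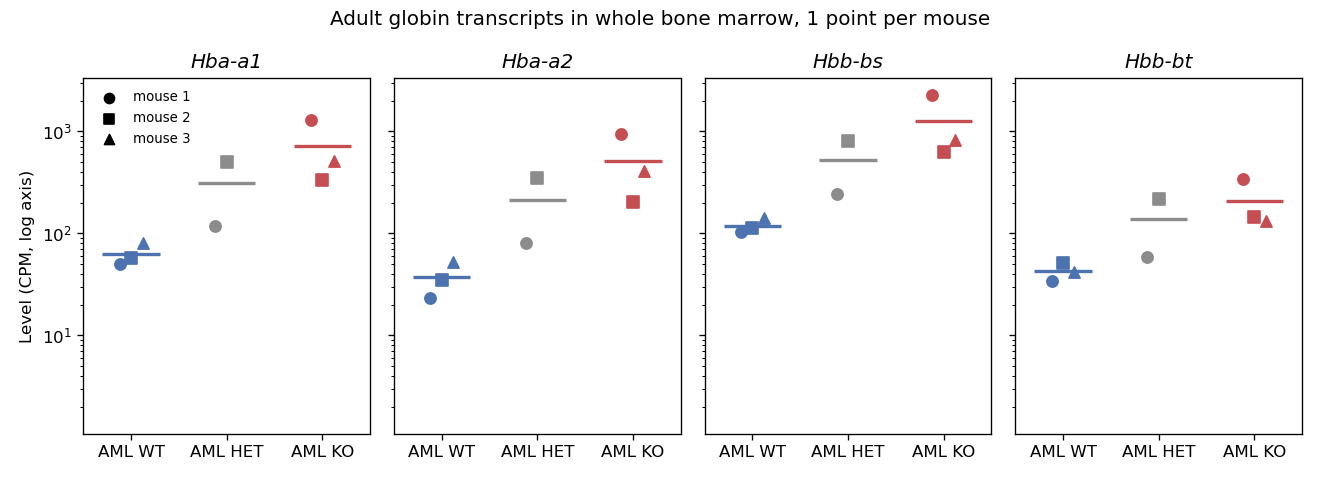
Level of each adult globin gene in CPM (log axis) by group (3 AML WT, 2 AML HET, 3 AML KO), with 1 point per mouse and a line at the group mean. In each panel all AML KO points lie above all AML WT points, AML KO mouse 1 is the highest, and AML HET mouse 2 lies within the AML KO range.

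Thus 3 of the 4 globins passed the test in the direction of AML KO, where 1.77% of all 13305 genes did (235 genes). Groups without overlap, with AML KO higher, were found at 4 of 4 globins and at 12.3% of all genes. In bulk RNA, more erythroid cells and more globin RNA per erythroid cell cannot be told apart. AML KO mouse 1 had the largest part in the size of the change: without it the log2 fold changes were 2.76 for Hba-a1, 3.04 for Hba-a2, 2.61 for Hbb-bs and 1.70 for Hbb-bt, and only Hbb-bs still passed (edgeR adjusted p = 0.0393). Without AML WT mouse 1 or 2 (0 of the 4) and without AML KO mouse 3 (1 of the 4, Hbb-bs) calls were also lost, while the log2 values stayed between 3.28 and 3.95 for Hba-a1, Hba-a2 and Hbb-bs.

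Between AML HET and AML WT BM, 0 of the 4 globins passed over all genes (adjusted p between 0.705 and 0.99), where 0.0225% of all genes were called higher. All 4 had an unadjusted edgeR p under 0.05, between 0.00406 and 0.00963, as did 329 of all 13305 genes in either direction. DESeq2 and limma-voom also called 0 of the 4. On the log2 scale the AML HET level was higher by 2.31 for Hba-a1 (SE 0.63), 2.53 for Hba-a2 (0.69), 2.13 for Hbb-bs (0.57) and 1.70 for Hbb-bt (0.53). Both AML HET mice were above all AML WT mice at 4 of 4 globins, against 9.53% of all genes. Summed over the 4 globins, AML HET mouse 1 had 499.9 CPM against 315.3 CPM in the highest AML WT mouse, whereas AML HET mouse 2 had 1866.2 CPM, next to the 1874.9 CPM of AML KO mouse 3. The size of the difference rested on which of the 2 was used: without AML HET mouse 2 it was 0.92 for Hba-a1, 1.14 for Hba-a2, 1.03 for Hbb-bs and 0.45 for Hbb-bt, and without AML HET mouse 1 it was 3.01, 3.23, 2.75 and 2.36.

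Between AML KO and AML HET BM, 0 of the 4 globins passed, as did 0% of all genes in that direction with edgeR (780 of all genes had an unadjusted p under 0.05 in either direction, and DESeq2 called 77). On the log2 scale the AML KO level was higher by 1.19 for Hba-a1 (SE 0.65), 1.27 for Hba-a2 (0.71), 1.26 for Hbb-bs (0.59) and 0.58 for Hbb-bt (0.54), with unadjusted edgeR p-values between 0.0612 and 0.312, so that 0 of the 4 were under 0.05, and DESeq2 and limma-voom called 0 as well. The groups overlapped at all 4 genes, and 13.2% of all genes were higher in AML KO without overlap. Both of these comparisons share the 2 AML HET mice. Without AML HET mouse 1 the differences were 0.50 for Hba-a1, 0.57 for Hba-a2, 0.64 for Hbb-bs and -0.08 for Hbb-bt. Without AML HET mouse 2 they were 2.58, 2.66, 2.36 and 1.83, and without AML KO mouse 1 they were 0.46, 0.51, 0.49 and 0.01.

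Per kb of exon, Hbb-bs had the highest level of the 4 genes in each group. In AML WT BM it was at 155 ± 25.7 CPM per kb (SD, n = 3), followed by Hba-a1 at 76.9 ± 19.6, Hbb-bt at 60.3 ± 12.1 and Hba-a2 at 55.2 ± 22.2, where the last 3 lay within each other's spread. In AML KO BM, Hbb-bs was at 1625.8 ± 1181 CPM per kb, followed by Hba-a1 at 874 ± 619, Hba-a2 at 768.6 ± 567 and Hbb-bt at 292.6 ± 168. In mean level Hbb-bt was above Hba-a2 in AML WT and the lowest of the 4 in AML HET and AML KO BM.

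The balance of alpha to beta transcripts was measured as the ratio of summed alpha to summed beta counts per kb. It was 0.521, 0.561 and 0.731 in AML WT, 0.671 and 0.841 in AML HET and 0.859, 0.700 and 0.975 in AML KO BM. Beta counts per kb exceeded alpha counts per kb in all 8 mice, the least in AML KO mouse 3. Reads left out because they fit both copies could change this. The AML WT mean was 0.604 ± 0.112 (SD, n = 3), the AML HET mean 0.756 ± 0.120 (SD, n = 2) and the AML KO mean 0.845 ± 0.138 (SD, n = 3). Groups overlapped here, because AML WT mouse 3 was above AML KO mouse 2, and the means of AML WT and AML KO were 0.49 apart on the log2 scale, against an SD between mice of 0.257 and 0.242. No test was run on this ratio, since it is a score over chosen genes.

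As sums, alpha transcripts were at 99.3 ± 30.6 CPM in AML WT and 1222.3 ± 880 CPM in AML KO BM (SD, n = 3 each), a 12.3-fold ratio of the means. Beta transcripts were at 161.5 ± 22.7 and 1454.3 ± 1023 CPM (SD, n = 3 each), a ratio of 9.01. With only the copy that has the most counts in each cluster, Hba-a1 and Hbb-bs, the shift in balance was 0.14 in place of 0.49 on the log2 scale.

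**Figure D2:**
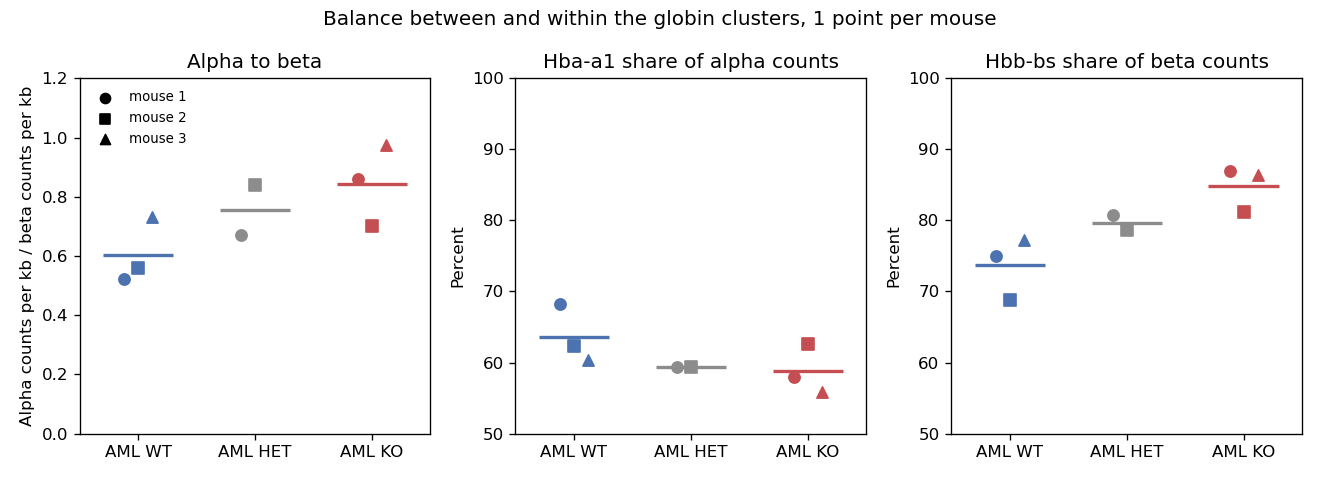
Ratio of alpha to beta counts per kb (left), and the share in percent of Hba-a1 among alpha counts (middle) and of Hbb-bs among beta counts (right), with 1 point per mouse and a line at the group mean. The ratio overlaps between AML WT and AML KO, while the Hbb-bs share is 68.8% to 77.3% in AML WT, 78.6% and 80.7% in AML HET and 81.2% to 87.0% in AML KO BM.

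Within the beta cluster the split between the copies differed between the genotypes in its point values, without a test. Hbb-bs held 75% (Wilson 95% interval 73.9% to 76.1%), 68.8% (67.5% to 70%) and 77.3% (76.2% to 78.3%) of beta counts in the AML WT mice. Its share was 80.7% (79.8% to 81.5%) and 78.6% (78.2% to 79.1%) in the AML HET mice, and 87.0% (86.8% to 87.2%), 81.2% (80.7% to 81.8%) and 86.4% (86.0% to 86.8%) in the AML KO mice. The point values of the 3 groups did not overlap, with AML HET between the others, and AML KO mouse 2 was nearest to the AML HET mice. At both borders the intervals did overlap, for AML KO mouse 2 with AML HET mouse 1 and for AML HET mouse 2 with AML WT mouse 3. These intervals cover counting error only, and the AML WT mice already differed from each other by more than that. Group means were 73.7% ± 4.42 (SD, n = 3), 79.7% ± 1.47 (SD, n = 2) and 84.9% ± 3.17 (SD, n = 3).

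Within the alpha cluster, Hba-a1 held 68.2%, 62.3% and 60.4% of alpha counts in AML WT, 59.4% and 59.3% in AML HET and 57.9%, 62.6% and 55.9% in AML KO mice. Here the groups overlapped, and the means of 63.6% ± 4.04 and 58.8% ± 3.43 (SD, n = 3 each) in AML WT and AML KO differed by about the spread between mice. With nearly identical copies, both shares rest on the few bases that differ and on how shared reads were counted.

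The beta cluster, unlike the alpha cluster, lies on the chromosome of the targeted gene, and laboratory strains of mice carry different versions of it: Hbb-bs and Hbb-bt are the copies of C57BL/6, while other strains carry Hbb-b1 and Hbb-b2. On the side away from Gab2, the nearest genes of the table are Trim6, Trim34a and Trim5, members of a family of antiviral ubiquitin ligases, followed closely by Trim12a, which is named here because earlier results had shown that AML KO mice differ at it. Trim12a starts 0.45 Mb from the beta cluster and had 1126, 884 and 1240 counts in the AML WT mice, 585 and 464 in the AML HET mice and 2, 346 and 3 in the AML KO mice. AML KO mouse 2 was thus close to the AML HET mice at Trim12a, as it was in its Hbb-bs share. Trim5 had the same pattern, with 601, 268 and 415 counts in AML WT, 167 and 123 in AML HET and 0, 121 and 4 in AML KO mice.

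**Figure D3:**
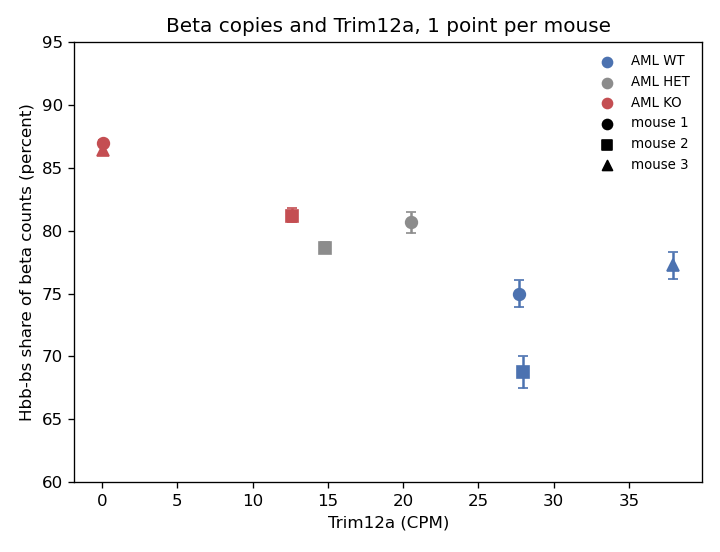
Share of Hbb-bs among beta counts in percent (bars show the Wilson 95% interval) against the level of Trim12a in CPM, with 1 point per mouse colored by group. AML KO mice 1 and 3 have the highest shares, 87.0% and 86.4%, and Trim12a below 0.1 CPM, and AML KO mouse 2 lies next to the AML HET mice.

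The share of Hbb-bs was highest in AML KO mice 1 and 3, the 2 mice with the fewest Trim12a counts. These mice also had the lowest Gab2 levels of the 8 mice (35.0 and 40.2 CPM). Their summed globins (4845.6 and 1874.9 CPM) and alpha to beta ratios (0.859 and 0.975) were the highest. Which of these traits goes with the share was not tested. Whether the DNA around the beta cluster differs between the genotypes was not tested, as the table holds counts per gene and no sequence of the reads.

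Of the 12 nearest listed genes around the clusters, 0 passed the test (edgeR). At an unadjusted p under 0.05 there were 0 of 6 around the alpha cluster and 3 of 6 around the beta cluster, against 2349 of 13305 genes in all. Next to the alpha cluster, Nprl3 (8.7 kb away, an inhibitor of mTORC1 whose introns hold the alpha globin enhancers) differed by 0.11 on the log2 scale (SE 0.14), Mpg, a DNA repair glycosylase that lies within the span of Nprl3 so that their reads may be shared, by 0.03 (0.19, and -0.10 without AML WT mouse 1) and Rhbdf1 by -0.29 (0.29). On the other side Sh3pxd2b had -0.07 (0.26, and 0.11 without AML KO mouse 1), Ubtd2 -0.18 (0.29) and Stk10 -0.19 (0.15). Next to the beta cluster, Trim68, Trim21 and Rrm1 had 0.53, -0.31 and -0.08, and Trim6, Trim34a and Trim5 had -1.17, -1.88 and -3.02 with edgeR adjusted p of 0.246, 0.058 and 0.232.

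**Figure D4:**
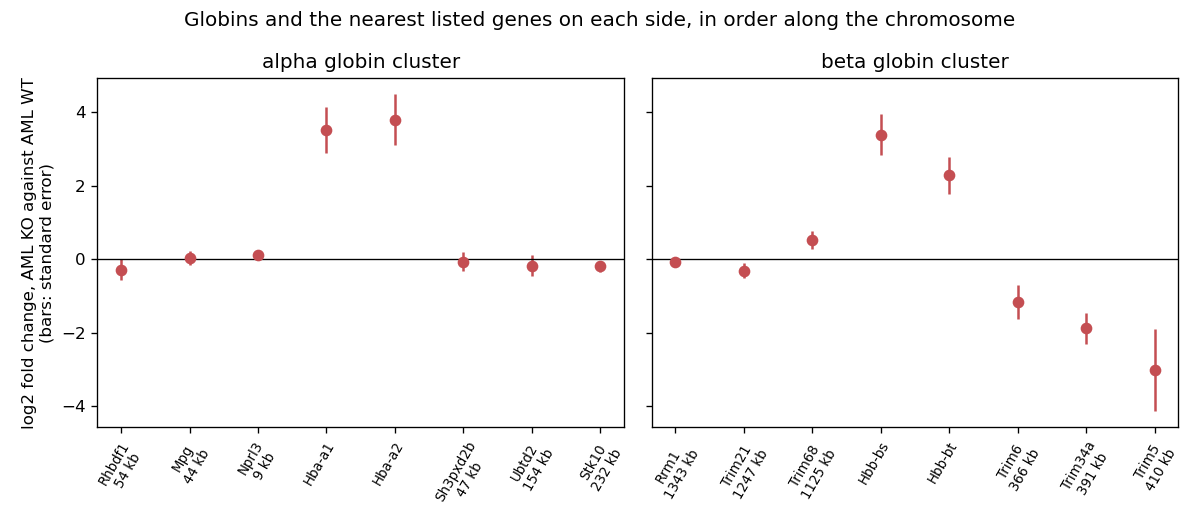
Difference of AML KO from AML WT BM on the log2 scale, with bars for the SE, for the globins and the 3 nearest listed genes on each side. Genes are in order along the chromosome, except that Hbb-bs is drawn before Hbb-bt, which has the lower coordinates. Neighbors are labeled with their distance from the cluster in kb. The globins stand at 2.28 to 3.80, and their neighbors lie between -3.02 and 0.53.

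Of the other 13 globin genes looked up, 1 is in the table. Hbq1b, a theta globin of the alpha cluster, had 8, 2 and 5 counts in AML WT, 15 and 51 in AML HET and 108, 20 and 39 in AML KO mice. It was 3.64 higher on the log2 scale in AML KO than in AML WT BM (SE 0.77), at a far lower level than the adult genes. Its edgeR adjusted p of 0.0456 passed narrowly. The call was lost in 7 of the 8 fits that leave out a mouse, with values of 2.71 to 4.01 and an adjusted p of up to 0.168, and also with limma-voom (0.0891), with the mouse number as a block (0.177) and in a fit without the AML HET mice (0.056). The embryonic genes Hba-x, Hbb-y and Hbb-bh1 and the globins of other tissues, Mb, Ngb and Cygb, are not among the listed genes, which hold no gene with fewer than 106 counts over the 8 mice.

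Heme, the other component of hemoglobin, is made by 8 enzymes, and all 8 are listed. Their median difference between AML KO and AML WT was 0.50 on the log2 scale, against -0.02 over all genes, and 1 of 8 passed (3 of 8 with DESeq2). That gene is Alas2, the erythroid form of the first enzyme, on chromosome X, at 5.53, 4.36 and 4.13 CPM in AML WT, 10.5 and 36.0 CPM in AML HET and 58.0, 28.9 and 24.8 CPM in AML KO BM. It rose by 2.99 (SE 0.47, edgeR adjusted p = 0.0149, lost without AML WT mouse 1 or 2 at 0.058 and 0.086), and AML HET mouse 2 again lay within the AML KO range. The other enzymes had smaller values, among them 0.19 for Cpox, 0.44 for Fech, which inserts iron to complete heme, and 1.17 for Alad. Of the list on heme transport and hemoglobin assembly, 8 of 9 genes are in the table and 0 passed, with 1.10 for the mitochondrial iron importer Slc25a37 (adjusted p = 0.134).

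Of 17 transcription factors and cofactors known to act on globin genes, 5 passed, all of them higher in AML KO, with a median of 0.24. Gata1, the master factor of erythroid and megakaryocyte genes, rose by 3.54 (SE 0.53), from a mean of 1.06 ± 0.460 to 12.2 ± 6.09 CPM (SD, n = 3 each). Klf1, which binds the CACCC motif of the adult beta promoter, rose by 3.48 (SE 0.63), from a mean of 0.880 ± 0.483 to 9.74 ± 5.05 CPM, and Sox6, a repressor of embryonic globins, by 2.91 (SE 0.49). Tal1 rose by 1.23 and Zfpm1, the partner of Gata1, by 1.18. Other factors, among them Bcl11a (-0.15), Zbtb7a (0.02), Ikzf1 (-0.18), Chd4 (-0.16) and Ldb1 (0.36), did not pass. Without AML WT mouse 2, 0 of the 17 passed.

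**Figure D5:**
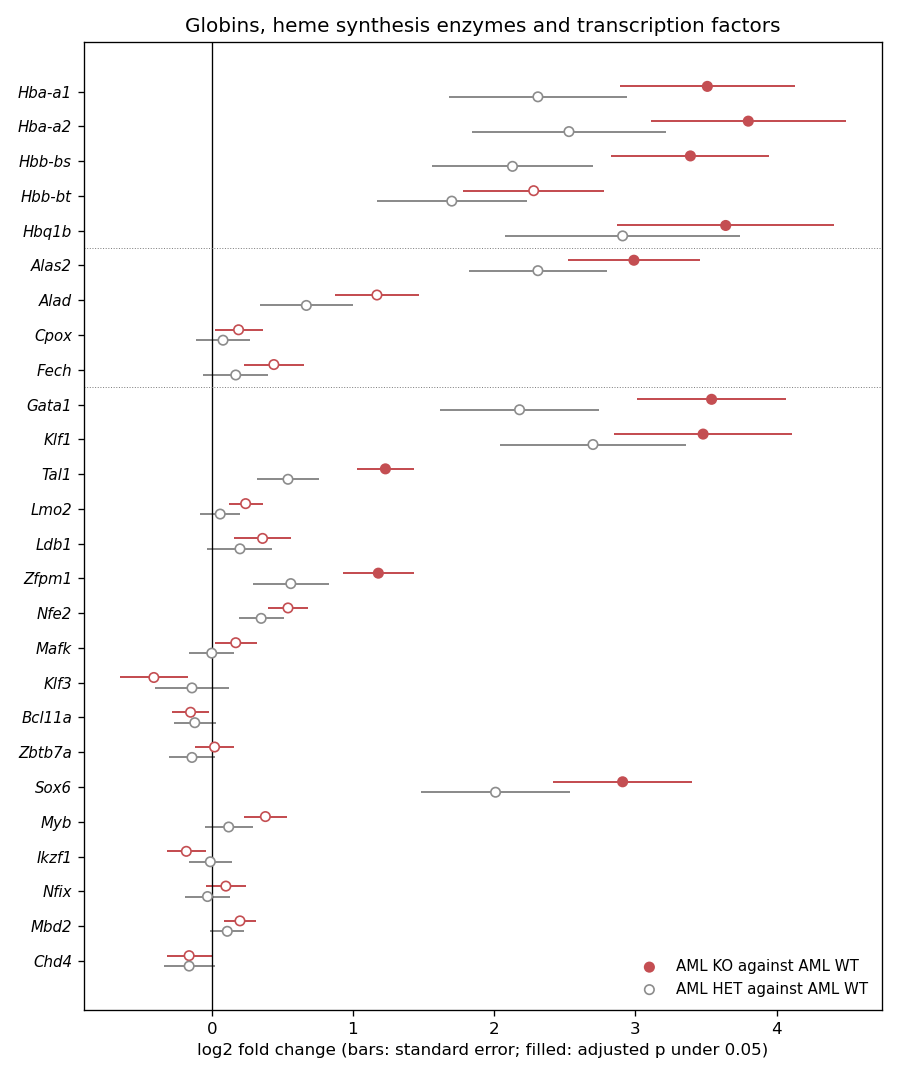
Log2 fold change against AML WT BM for the adult globins and Hbq1b (top), 4 of the heme synthesis enzymes (middle) and 17 transcription factors (bottom), with AML KO in red, AML HET in grey, standard errors as bars and filled points for an adjusted p under 0.05. In AML KO the globins, Alas2, Gata1, Klf1 and Sox6 lie between 2.28 and 3.80, the other genes lie between -0.41 and 1.23, and no AML HET point is filled.

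The genes whose levels followed the globins most closely over the 8 mice, by the mean Pearson correlation of log2 CPM with the 4 members, were Tspo2 (0.987), Car1 (0.986), Rhd (0.986), Phyhip (0.983) and Tmcc2 (0.983). The mice fall into 3 genotypes, which all these genes share as a source of their order. Tspo2, an erythroid relative of the mitochondrial translocator protein, and Rhd, the Rhesus blood group antigen, are known from red cells, as is the carbonic anhydrase Car1. In AML KO against AML WT BM they rose by 4.34, 3.89 and 4.11, and Phyhip and Tmcc2 by 4.23 and 1.77. Among the members, Hba-a1 and Hbb-bs had a correlation of 0.998 across clusters, higher than the 0.973 of Hbb-bs with Hbb-bt within 1 cluster.

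Of 18 red cell membrane genes, 14 were called higher, 0 lower, with a median of 3.69. Epb41, Gypc and Slc2a1, which many cell types express, are on that list and were not called (0.23, 0.41 and -0.34). Tmod1 was not called either, at a larger difference of 2.35 (edgeR adjusted p = 0.0568). Among the called genes of the list, Epb42 rose by 3.92 and Rhag by 3.91, next to 3.39 to 3.80 for Hba-a1, Hba-a2 and Hbb-bs and 2.28 for Hbb-bt. The late erythroid list had 10 of 17 listed genes called higher (median 2.52) and the early erythroid list 11 of 16 (median 2.03). Markers of other cells also moved: 14 of 18 megakaryocyte and platelet genes (median 2.63) and 8 of 16 mature neutrophil genes (median 1.52) were called higher, and summed neutrophil markers were at 1870.5 to 5287.8 CPM in AML WT and 11141.7 to 17859.0 CPM in AML KO BM. The macrophage list had 3 genes called higher and 2 lower of 14 and the list of HSPC genes 3 of 12 higher, whereas 0 of 12 monocyte, 0 of 11 B cell and 0 of 13 T and NK cell genes were called. Without AML WT mouse 2 these lists had 0 red cell membrane, 0 late erythroid, 0 early erythroid and 0 neutrophil genes called, and 8 megakaryocyte and platelet genes. The part of these other cells in the globin values was not tested.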

How the data were processed

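RNA of whole BM was sequenced by the authors on an Illumina HiSeq4000, with 1 library per mouse, and raw counts per gene were deposited for 8 mice. The submitters' processing notes name Trimmomatic 0.36, STAR 2.5.2b and the build mm10, while the counter, its annotation and its handling of reads with several matches are not given in the sources used here. Columns were matched to mice by group and number. Of 13305 Ensembl identifiers, 13266 were found in GENCODE M21, and Ahsp was not analysed here.

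Counts were fitted in R 4.3.3 with edgeR 4.0.16 (TMM, robust quasi-likelihood test, all 8 mice, genotype as the only term, Benjamini-Hochberg adjustment over all genes, threshold 0.05), after a test on simulated data. filterByExpr removed 0 genes. Standard errors were derived from the F statistic, and exon lengths are unions of GENCODE exons. Replicates of a group are separate mice, and all pairs differed by more than sampling noise. Library totals were 28009258 to 39266815 counts. CPM is the count scaled to a common library size with TMM factors. Members and lists were chosen with earlier results of these data known. Named genes are the members, other listed globins, heme enzymes (some are not reported here), the 3 largest called changes of each list (not all are reported), the 3 nearest genes on each side of a cluster, the 5 most alike genes, Gab2 and Trim12a. Tal1, Zfpm1, Bcl11a, Zbtb7a, Ikzf1, Chd4 and Ldb1 were chosen after their values were seen. Alternatives used DESeq2 1.42.0, limma 3.58.1, other scalings, a filter of 10 counts in every mouse, the mouse number as a block, only the groups compared, and each mouse left out. Promoters come from RefSeq (4 of 4 members matched). Python 3.11.15 with pandas 2.3.3 wrote the tables, and matplotlib 3.10.9 drew the plots.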

Additional observations from a re-analysis of the deposited data

How the results depend on the processing

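The 4 globins kept a higher level in AML KO than in AML WT under every alternative run, but their calls did not all hold. With DESeq2 the whole table had 730 genes called in place of 278 and heme synthesis 3 in place of 1, and Hbb-bt passed (2.28, adjusted p = 0.00803), as it did with only the groups compared (2.28, 0.0239). Whether the mouse numbers pair the mice is not stated in the sources used here. Same-numbered mice had correlations of -0.51 to 0.29 in their deviations from group means. With 2 or 3 mice per group these deviations are tied to each other, so the correlations cannot settle whether the mice are paired. With the number as a replicate block, 19 genes of the whole table were called, and 0 globins, 0 heme enzymes, 0 transcription factors, 0 red cell membrane and 0 late erythroid genes, with 3.51 for Hba-a1, 3.86 for Hba-a2 and 3.34 for Hbb-bs (adjusted p = 0.141, 0.142 and 0.127). With each mouse left out in turn, calls ranged from 0 to 4 for the globins, 40 to 370 for the whole table, 0 to 1 for heme synthesis, 0 to 5 for transcription factors, 0 to 14 for the red cell membrane and 0 to 10 for late erythroid genes, with most of these minima reached without AML WT mouse 2. The log2 values then ranged from 2.76 to 3.83 for Hba-a1, 3.04 to 4.17 for Hba-a2, 2.61 to 3.70 for Hbb-bs and 1.70 to 2.52 for Hbb-bt, and from -0.08 to 1.83 for Hbb-bt between AML KO and AML HET. Of the neighbors near 0, Mpg and Sh3pxd2b changed sign and Ubtd2 reached 0: Mpg was -0.03 with library totals and -0.10 to 0.12 with a mouse left out, Sh3pxd2b -0.45 to 0.11 and Ubtd2 -0.35 to 0.00. The shift in alpha to beta balance was 0.14 with the most counted copy of each. The causes were not tested. There were 2 or 3 mice per group, and reads may be shared between copies.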

Other observations

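AML HET mouse 2 had globin levels like those of AML KO mice, but not all markers of mature blood cells followed. On the log2 scale and relative to AML WT means, the 18 red cell membrane genes had a median of 3.74 in this mouse, within the 2.71 to 4.44 of the AML KO mice, and the median of the 4 globins was 2.90, within 2.43 to 4.33. The median of the 18 megakaryocyte and platelet genes was 0.94, below the 2.26 to 2.60 of the AML KO mice, and that of the 16 mature neutrophil genes was 0.48, below 1.44 to 1.86 and within the range of the AML WT mice (-0.36 to 0.52). Summed, however, these neutrophil genes were at 6732.6 CPM in AML HET mouse 2, above the 1870.5 to 5287.8 CPM of the AML WT mice. This sum was below the 11141.7 to 17859.0 CPM of the AML KO mice. Both AML HET mice were above all AML WT mice at 9 of the 16 neutrophil genes, against 9.53% of all genes. In AML HET mouse 1 the medians were 1.00 for globins, 1.61 for red cell membrane genes, 0.41 for megakaryocyte and platelet genes and 0.54 for mature neutrophil genes. These are values of 2 mice, and the difference between lists was not tested.

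AML KO mouse 1 had the highest summed levels of globins (4845.6 CPM), megakaryocyte and platelet genes (826.3 CPM) and mature neutrophil genes (17859.0 CPM) of the 8 mice.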
